A study of Mus musculus with 8 samples.

Results

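The subject is 47 genes of the DNA replication machinery, described in granulocyte-macrophage progenitors of the mouse after loss of the histone chaperone CAF-1 or loss of HOXA9 activity. The genes were given as a list of names with no threshold on a measured value, although the list was drawn up with earlier results of these data known, and they stand among 34199 annotated genes. All 47 were present in the count files and all passed the filter on low counts, and the lowest count of any of them in any library was 154. By role they were 12 genes of origin licensing, 8 of fork helicase assembly, 9 of the replicative polymerases, 11 of clamp loading and strand maturation, 6 of nucleotide supply, and the checkpoint kinase gene Chek1.

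The cells were immortalised progenitors (iGMPs) of the strain C57Bl/6 that carry HOXA9 fused to an estrogen receptor domain, which keeps them dividing while estradiol is present, and a GFP reporter under the Lysozyme promoter. Bulk RNA sequencing covered 4 groups of 2 libraries each, all grown with stem cell factor from conditioned medium. The starting point at 0 h were uninduced cells, given 150 ng/ml estradiol. The CAF-1 OFF cells stayed in estradiol and received 500 µM IPTG for 48 h, which switched on a small hairpin RNA against Chaf1b, a CAF-1 subunit gene. IPTG-treated control cells also had IPTG for 48 h in estradiol, at a concentration that their own label does not state. According to the study's methods the control vector held a stuffer sequence in place of the hairpin. HOXA9 OFF cells were washed and kept for 48 h without estradiol. The lines were clones of cells with integrated lentiviral vectors, and the study's supplement mentions expression tracks of independent sub-clones, but the labels tie no library to a clone or a culture, so p-values measure only the spread between these libraries, which may be technical. In bulk RNA, fewer cells of a type and less RNA per cell cannot be told apart.

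Replication starts at origins where the origin recognition complex, CDC6 and CDT1 load a double ring of MCM2-7, a step called licensing that takes place before S phase. The kinases CDC7-DBF4 and CDK then bring in CDC45, the GINS complex and MCM10, which turns the ring into an active helicase, after which polymerases alpha, delta and epsilon copy the strands on a sliding clamp of PCNA. Many of these genes are known targets of E2F transcription factors, which are held back by the retinoblastoma family of pocket proteins, and their transcripts are typically high in cycling progenitors and fall as granulocytes mature and leave the cell cycle.

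Promoter sequences were looked up because the genes were read as a group. The RefSeq table of promoter windows, each from 250 bases before to 50 bases from the start site on in GRCm38.p6, held 46 windows for 39 of the 47 genes. Each window was searched on both strands for the E2F letters TTTCCCGC, TTTGGCGC, TTTCGCGC and TTTGCCGC. At least 1 of them was found in 14 of the 39 genes (35.9%), against 704 of the 27025 genes of the table (2.605%) and 744 of its 32851 windows (2.265%). The comparison did not adjust for base content, and a match is a description of letters and not a sign of binding. By role, the letters were present in 7 of 10 licensing genes, 4 of 7 polymerase genes, 2 of 10 clamp genes, 1 of 5 fork helicase genes, 0 of 6 nucleotide genes and not in Chek1.

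The windows below are printed 5′ to 3′ on the strand of the gene, with E2F letters in capitals. Orc1 (chr4:108579204-108579503, plus strand), Mcm5 (chr8:75109259-75109558, plus strand), Mcm6 (chr1:128359656-128359955, minus strand), Pold1 (chr7:44548766-44549065, minus strand) and Rfc3 (chr5:151651159-151651458, minus strand) are shown because they hold the letters in 3 of the roles, and in Mcm5 and Mcm6 a match on each strand overlaps. Pold2 (chr11:5878207-5878506, minus strand, the first of 2 windows) and Ung (chr5:114130185-114130484, plus strand) are shown because these genes had the lowest changes of all 47 in HOXA9 OFF cells and none of these letters in their windows.
Orc1: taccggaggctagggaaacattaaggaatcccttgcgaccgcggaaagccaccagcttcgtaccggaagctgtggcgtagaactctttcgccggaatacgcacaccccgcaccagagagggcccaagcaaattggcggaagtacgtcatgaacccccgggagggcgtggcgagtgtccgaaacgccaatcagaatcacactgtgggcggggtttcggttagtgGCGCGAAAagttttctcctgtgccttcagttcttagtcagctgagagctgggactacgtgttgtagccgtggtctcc
Mcm5: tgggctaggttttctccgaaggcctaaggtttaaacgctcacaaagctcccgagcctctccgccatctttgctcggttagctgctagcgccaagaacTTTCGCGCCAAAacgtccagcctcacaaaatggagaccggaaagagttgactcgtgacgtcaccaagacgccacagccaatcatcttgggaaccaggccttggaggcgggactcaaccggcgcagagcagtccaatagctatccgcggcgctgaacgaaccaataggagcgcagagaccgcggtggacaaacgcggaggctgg
Mcm6: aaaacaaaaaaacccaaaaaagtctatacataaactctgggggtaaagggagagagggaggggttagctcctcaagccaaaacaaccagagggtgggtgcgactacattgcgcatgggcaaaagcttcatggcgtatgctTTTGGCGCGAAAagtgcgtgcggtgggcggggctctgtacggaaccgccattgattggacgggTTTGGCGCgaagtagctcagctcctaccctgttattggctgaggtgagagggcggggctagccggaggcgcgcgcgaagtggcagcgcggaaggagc
Pold1: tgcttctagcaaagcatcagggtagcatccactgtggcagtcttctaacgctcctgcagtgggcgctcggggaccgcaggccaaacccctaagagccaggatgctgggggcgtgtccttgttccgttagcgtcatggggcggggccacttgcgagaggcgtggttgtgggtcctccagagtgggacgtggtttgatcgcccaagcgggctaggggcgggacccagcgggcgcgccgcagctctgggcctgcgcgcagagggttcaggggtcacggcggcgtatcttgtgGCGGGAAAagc
Rfc3: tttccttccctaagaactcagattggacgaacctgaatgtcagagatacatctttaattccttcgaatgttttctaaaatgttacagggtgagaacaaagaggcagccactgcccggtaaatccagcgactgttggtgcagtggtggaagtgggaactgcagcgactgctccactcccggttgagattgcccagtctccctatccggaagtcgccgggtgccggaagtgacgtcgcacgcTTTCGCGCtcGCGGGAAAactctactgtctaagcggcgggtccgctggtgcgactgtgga
Pold2: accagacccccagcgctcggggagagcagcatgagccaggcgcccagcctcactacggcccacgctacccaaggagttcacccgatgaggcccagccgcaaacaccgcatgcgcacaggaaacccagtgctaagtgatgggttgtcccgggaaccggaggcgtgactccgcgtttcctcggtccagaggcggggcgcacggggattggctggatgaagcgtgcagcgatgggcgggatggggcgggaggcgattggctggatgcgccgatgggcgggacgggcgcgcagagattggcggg
Ung: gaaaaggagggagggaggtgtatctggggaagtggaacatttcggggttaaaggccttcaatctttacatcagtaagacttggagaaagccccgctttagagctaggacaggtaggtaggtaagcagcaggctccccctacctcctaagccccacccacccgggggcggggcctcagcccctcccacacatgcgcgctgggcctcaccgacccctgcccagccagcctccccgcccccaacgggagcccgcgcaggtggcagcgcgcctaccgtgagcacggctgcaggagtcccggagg

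The positions of the letters differed between genes. Counted from the start site, they lay from -27 to -20 in Orc1, from -153 to -142 in Mcm5 as an overlapping pair, and on both sides of the start in Rfc3. Mcm6 held 3 matches, the most of any of the 39 genes. Other letters gave a smaller contrast with the table, since CCAAT was present in 22 of the 39 genes (56.4%) against 41.1% of all genes, and the cell cycle element letters TTTGAA in 7 (17.95%) against 20.2%.

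**Figure D1:**
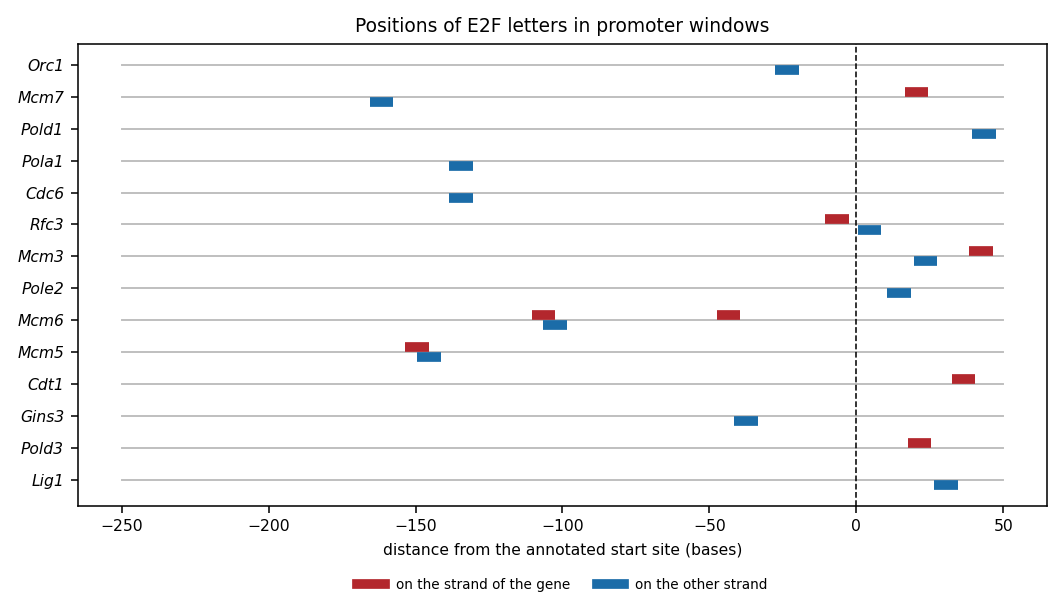
Positions of E2F letters in the promoter windows of the 14 replication genes that hold them, with distance from the annotated start site in bases on the x axis and genes ordered by their change in HOXA9 OFF cells. Each bar is 1 match, red on the strand of the gene and blue on the other strand, and matches lie on both sides of the start site.

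The total count assigned to genes lay between 14044284 and 22423837 per library. Reads outside genes were 14.6% in IPTG-treated control replicate 1 and 5.30% to 7.79% in the other 7 libraries. Chaf1b was at 96.8 and 100.3 CPM (counts scaled to library sizes adjusted by TMM) in uninduced cells against 18.7 and 9.72 CPM in CAF-1 OFF libraries, with 48.3 and 41.0 CPM in HOXA9 OFF libraries as well. The 6 progenitor markers summed to 10316 to 14302 CPM in uninduced libraries and 15479 to 15609 CPM in CAF-1 OFF libraries. In HOXA9 OFF libraries their sum was 5563 to 7551 CPM. Cd34, Kit and Ctsg were called lower there, and Mpo, Prtn3 and Elane were not called (log2 fold changes -0.76, 0.43 and 0.70). Lymphoid markers summed to 2.67 and 2.57 CPM in uninduced and 17.2 and 16.6 CPM in CAF-1 OFF libraries. Their sums in HOXA9 OFF libraries were 3.85 and 8.28 CPM. HOXA9 OFF replicate 2 was below replicate 1 for 45 of the 47 genes, with a median gap of -0.42 on the log2 scale, so the counts of called genes in HOXA9 OFF comparisons are given with and without each of these libraries.

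Seen as a sum, the 47 genes took 9655 ± 726 CPM (SD, n = 2) before induction and 9465 ± 282 CPM in the IPTG-treated control. The sum was 8171 ± 166 CPM in CAF-1 OFF libraries, which was 84.6% of the uninduced mean, and 5407 ± 1180 CPM in HOXA9 OFF libraries, which was 56.0% of it. In HOXA9 OFF cells the remaining share of the uninduced sum was 49.6% for polymerases, 50.9% for nucleotide supply, 53.8% for licensing, 59.7% for the fork helicase, 69.3% for clamp loading and 34.5% for Chek1. In CAF-1 OFF cells these shares ran from 92.3% for nucleotide supply to 79.1% for licensing, with Chek1 at 70.8%. Single abundant genes weigh on these sums. Rrm2 had a mean of 375 CPM in uninduced and 516 CPM in CAF-1 OFF libraries, and Mcm6 had 921 and 515 CPM. By median log2 fold change the order was the reverse, with -0.33 for nucleotide supply and -0.29 for licensing.

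**Figure D2:**
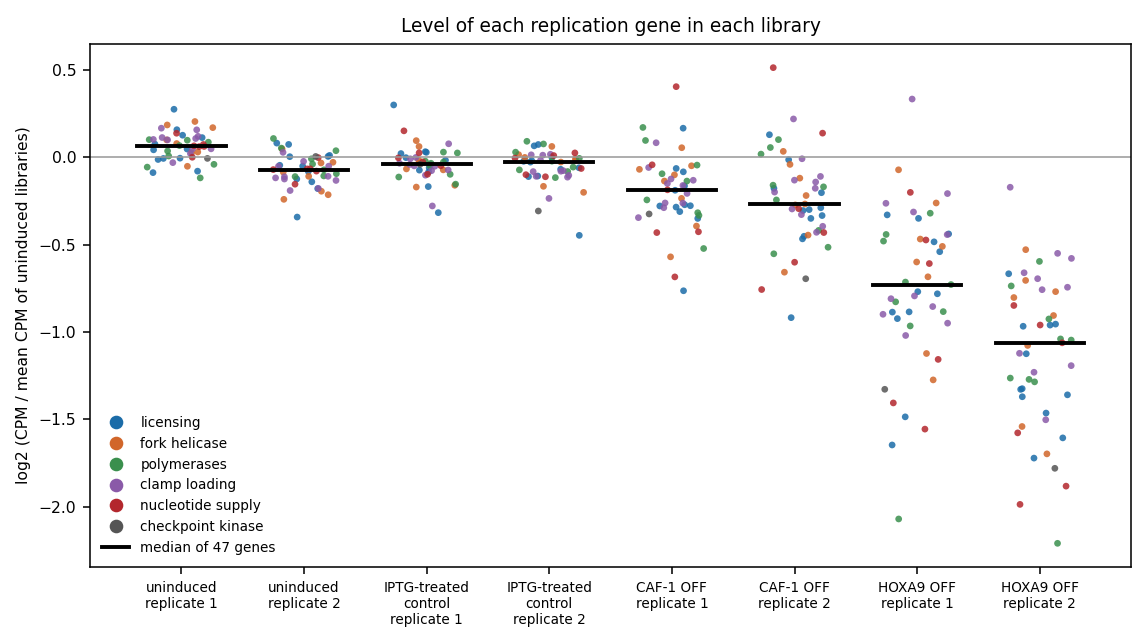
Level of each of the 47 replication genes in each library, as log2 of its CPM over the mean CPM of the uninduced libraries, coloured by role, with a black bar at the median. The medians are -0.73 and -1.06 in the HOXA9 OFF libraries, -0.19 and -0.27 in the CAF-1 OFF libraries, and -0.04 and -0.03 in the IPTG-treated control libraries.

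Whether 48 h without estradiol lowers replication genes was asked by comparing HOXA9 OFF with uninduced cells. A gene was called when the edgeR quasi-likelihood test gave a Benjamini-Hochberg FDR under 0.05 over all 13080 genes tested and the change was at least 1.5-fold. Of the 47 genes, 35 fell and 0 rose, while 22.1% of all tested genes were called lower and 25.2% called higher. The median log2 fold change was -0.83 over the 47 genes and 0.01 over all genes tested, and 44 of the 47 had both HOXA9 OFF libraries below both uninduced libraries. How many of all tested genes lay apart in this way was not counted. Of the 35, 18 fell by at least 2-fold, a number that was smaller without HOXA9 OFF replicate 2 and larger without replicate 1. At 2-fold and an FDR under 0.01 it was also 18, where 1506 of all 13080 genes were called lower. A further 5 passed the FDR threshold with a change under 1.5-fold (Gmnn, Prim2, Pold3, Rpa1 and Lig1), and 7 did not pass it (Mcm6, Cdc45, Gins4, Rfc1, Rfc2, Rfc5 and Tk1). The number called lower was 28 without HOXA9 OFF replicate 2 and 43 without replicate 1. By role, leaving out replicate 2 gave 7 licensing, 4 fork helicase, 6 polymerase, 6 clamp and 4 nucleotide genes, while leaving out replicate 1 gave 12, 7, 9, 8 and 6, with Chek1 called in both. With library size alone in place of TMM the median of all genes moved to -0.18 and that of the 47 genes to -1.01. In that setting 43 of the 47 and 3701 of all 13080 genes were called lower.

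**Figure D3:**
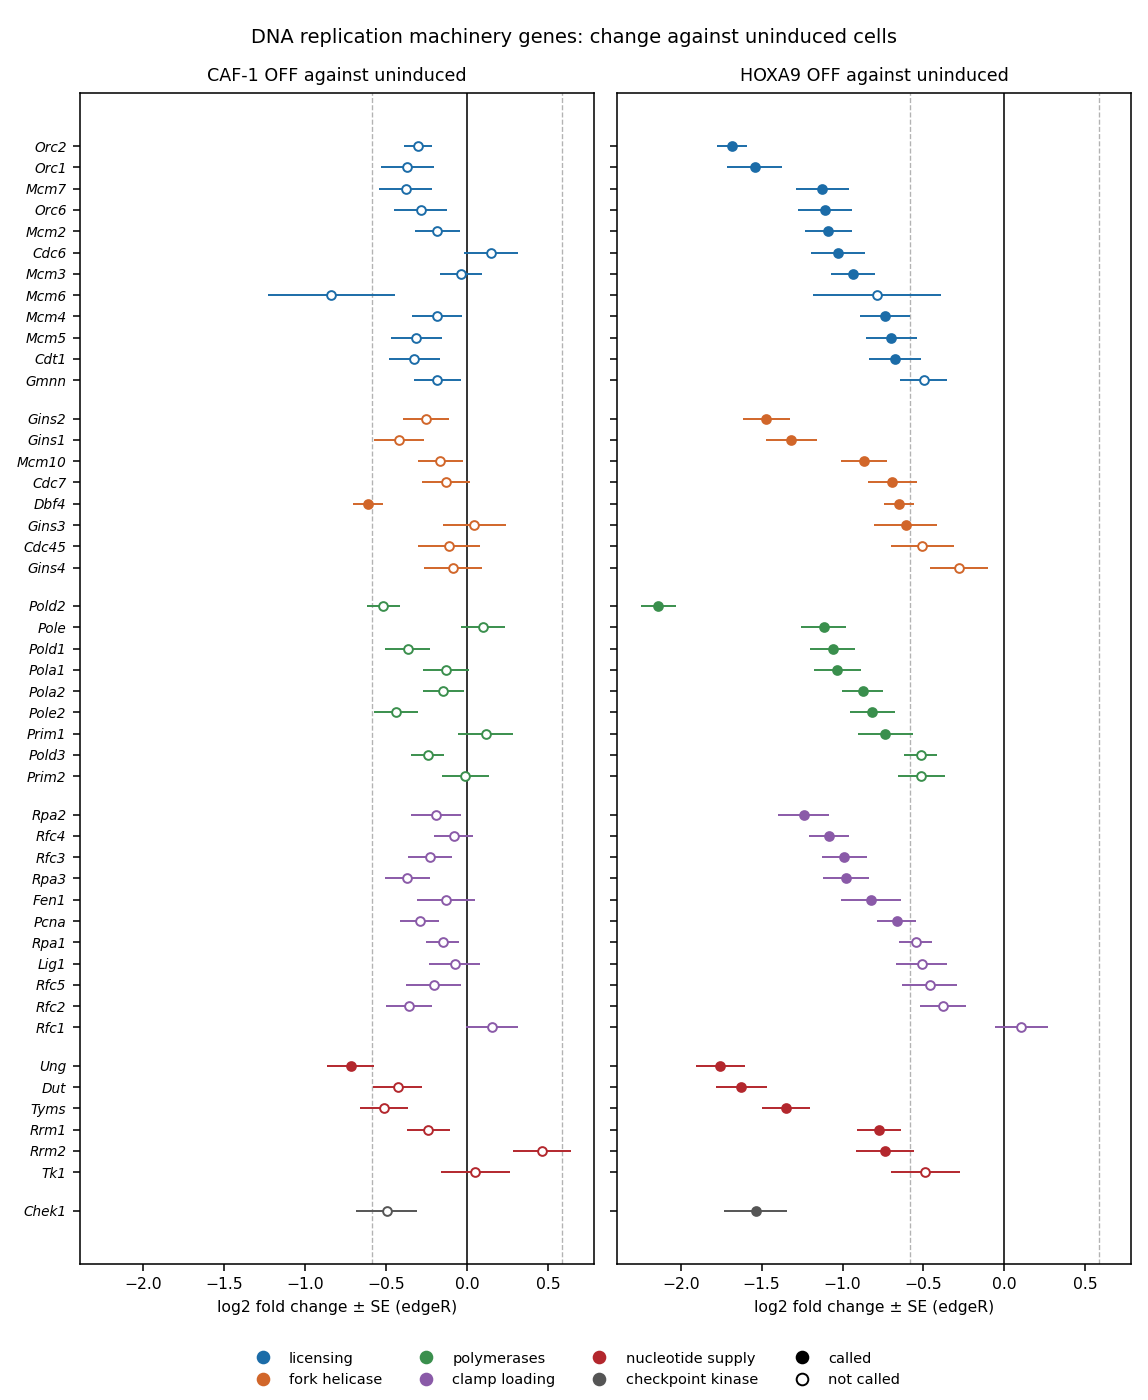
Log2 fold change with its standard error (edgeR, all 8 libraries in 1 fit) of the 47 replication genes against uninduced cells, in CAF-1 OFF cells on the left and HOXA9 OFF cells on the right, grouped by role. Filled points were called, dashed lines mark 1.5-fold, and 35 genes are called lower on the right against 2 on the left.

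Of the licensing genes, 10 of 12 fell in HOXA9 OFF cells, with a median log2 fold change of -0.98. Orc2, a core subunit of the origin recognition complex, was at 136 and 137 CPM in uninduced libraries, 122 and 127 CPM in IPTG-treated control libraries, 113 and 108 CPM in CAF-1 OFF libraries, and 43.6 and 41.4 CPM in HOXA9 OFF libraries. The HOXA9 OFF libraries were far below the other 6, and the log2 fold change against uninduced cells was -1.68 ± 0.09 (SE; edgeR FDR 1.5e-05). Orc1, the ATPase subunit of the same complex and the gene with the lowest uninduced level per kilobase of exon among the 47 (5.01 CPM per kilobase), was at 22.0 and 24.8 CPM in uninduced libraries and 8.36 and 7.69 CPM in HOXA9 OFF libraries. Cdc6, a licensing factor that helps load the MCM ring, went from 87.8 and 82.1 CPM to 49.4 and 33.8 CPM. Gmnn encodes geminin, the inhibitor of CDT1, and had the change nearest to 0 in this role, from 151 and 119 CPM to 106 and 85.2 CPM (log2 fold change -0.50 ± 0.14, edgeR FDR 0.019, under 1.5-fold). Cdt1 itself fell, from 136 and 128 CPM to 97.6 and 67.9 CPM (log2 fold change -0.68), and it was among the calls lost without HOXA9 OFF replicate 2.

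The 6 subunits of the MCM ring were among the most abundant of the 47 transcripts per length. Per kilobase of exon, the uninduced level was 211 ± 62.8 CPM for Mcm6, 190 ± 2.19 for Mcm3, 167 ± 12.8 for Mcm5, 147 ± 19.2 for Mcm7, 135 ± 0.57 for Mcm2 and 95.2 ± 7.14 for Mcm4 (SD, n = 2). The libraries of Mcm6 overlapped those of Mcm3 and Mcm5, and those of Mcm7 overlapped Mcm2 and Mcm5, so that only Mcm4 stood below the rest beyond its spread. Mcm2, Mcm3, Mcm4, Mcm5 and Mcm7 fell in HOXA9 OFF cells, with log2 fold changes from -1.12 ± 0.16 for Mcm7 to -0.70 ± 0.16 for Mcm5, and the calls of Mcm4 and Mcm5 were lost without HOXA9 OFF replicate 2. Mcm6 was not called in any comparison in the fit of all 8 libraries with 1 mean per group. It was called lower in CAF-1 OFF when only the libraries compared were fitted (edgeR FDR 0.029 against uninduced and 0.046 against control libraries), and in HOXA9 OFF without HOXA9 OFF replicate 1 (log2 fold change -1.46, edgeR FDR 0.0099). It was at 1115 and 727 CPM in uninduced libraries, 1134 and 676 CPM in IPTG-treated control libraries, 542 and 487 CPM in CAF-1 OFF libraries and 733 and 334 CPM in HOXA9 OFF libraries. The first library of each group was the higher for this gene, and the CAF-1 OFF libraries were below all 4 uninduced and control libraries (log2 fold change against uninduced -0.84 ± 0.39, edgeR FDR 0.17).

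**Figure D4:**
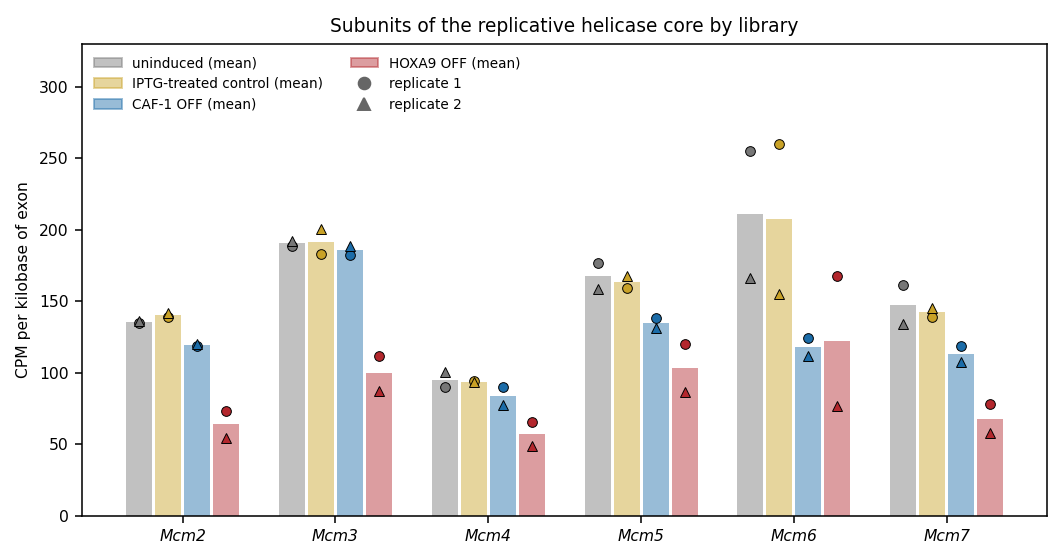
Level of the 6 MCM ring subunits in CPM per kilobase of exon, with a bar for the mean of each group, a circle for replicate 1 and a triangle for replicate 2. The HOXA9 OFF means lie below the uninduced means for all 6, and the libraries of Mcm6 spread from 166 to 255 in uninduced cells.

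Fork helicase genes fell in 6 of 8 cases in HOXA9 OFF cells, with a median log2 fold change of -0.67. Gins2 and Gins1, which encode subunits of the GINS complex, were lowest. Gins2 went from 90.0 and 86.6 CPM in uninduced libraries to 36.5 and 27.2 CPM (log2 fold change -1.47 ± 0.15, edgeR FDR 0.00011), although 67.3% of its exon bases in the mm9 annotation overlap Gse1 on the opposite strand and the strand setting of the counting is not given in the sources used here. Gins1, free of such overlap, went from 77.7 and 67.2 CPM to 33.3 and 24.9 CPM (log2 fold change -1.32). Gins4 of the same complex was at 92.3 and 69.9 CPM in uninduced libraries and 77.2 and 56.2 CPM in HOXA9 OFF libraries, and these libraries overlapped (log2 fold change -0.28 ± 0.18, edgeR FDR 0.22). Gins3 fell with a log2 fold change of -0.61, a call lost without uninduced replicate 1 or HOXA9 OFF replicate 2, and also when only the compared libraries were fitted. Both subunits of the CDC7-DBF4 kinase fell, Cdc7 with a log2 fold change of -0.69 (lost without HOXA9 OFF replicate 2) and its activator Dbf4 with -0.65, while Cdc45, the partner of MCM and GINS in the helicase, did not pass the FDR threshold (-0.51 ± 0.19, edgeR FDR 0.054).

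Among the polymerase genes 7 of 9 fell, with a median log2 fold change of -0.88. Pold2, an accessory subunit of polymerase delta, had the lowest value of all 47 genes, at 183 and 158 CPM in uninduced libraries, 167 and 174 CPM in IPTG-treated control libraries, 119 and 119 CPM in CAF-1 OFF libraries and 40.6 and 36.8 CPM in HOXA9 OFF libraries. Without estradiol the level fell by 77.3% (log2 fold change -2.14 ± 0.11, edgeR FDR 1.4e-05). The catalytic subunit genes fell less, with log2 fold changes of -1.12 for Pole, -1.06 for Pold1 and -1.03 for Pola1. Pold3, another accessory subunit of polymerase delta, went from 114 and 104 CPM to 80.4 and 72.2 CPM (log2 fold change -0.52 ± 0.10, edgeR FDR 0.0033, under 1.5-fold), and Prim2, the large primase subunit, had a like value of -0.51. The small primase subunit Prim1 passed both thresholds with -0.74, but not without HOXA9 OFF replicate 2.

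Clamp loading and strand maturation was the role with the smallest share of calls against uninduced cells in the fit of all 8 libraries, 6 of 11. Its median log2 fold change was -0.67. Against IPTG-treated control cells the fork helicase had the smaller share, 4 of 8 against 6 of 11. Rpa2, a subunit of the protein that covers single-stranded DNA, was lowest, going from 172 and 149 CPM to 79.3 and 56.7 CPM (log2 fold change -1.24 ± 0.16, edgeR FDR 0.00038). Rpa3 of the same complex fell with -0.98, and Rpa1 passed the FDR threshold with -0.55, under 1.5-fold. The clamp loader genes differed from each other. Rfc4 and Rfc3 fell with log2 fold changes of -1.08 and -0.99, whereas Rfc2 and Rfc5 were at -0.38 and -0.46 (edgeR FDR 0.0504 and 0.0506). Rfc1, the large subunit of the loader, was at 224 and 233 CPM in uninduced libraries and 288 and 203 CPM in HOXA9 OFF libraries, on both sides of the uninduced level, and had the only value above 0 (0.10 ± 0.16, edgeR FDR 0.61).

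Pcna, the clamp itself, fell from 304 and 260 CPM to 163 and 193 CPM (log2 fold change -0.67 ± 0.12, edgeR FDR 0.0024), a call lost without uninduced replicate 1 or HOXA9 OFF replicate 1. Only 74.1% of the 50-base windows of its longest transcript were unique, the others being shared with the pseudogene Pcna-ps2, and for Rpa3 the share was 83.4%. Fen1, the flap nuclease of lagging strand maturation, was counted at only 17.5 and 13.9 CPM in uninduced libraries and 8.41 and 9.27 CPM in HOXA9 OFF libraries (log2 fold change -0.83). Of its exon bases, 84.2% overlap opposite-strand genes, mainly Gm10143, so its level is uncertain.

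In nucleotide supply 5 of 6 genes fell, with the lowest median of the 5 larger roles, -1.06. Ung, the uracil-DNA glycosylase that removes uracil from DNA, was at 98.1 and 89.8 CPM in uninduced libraries, 87.9 and 93.7 CPM in IPTG-treated control libraries, 58.5 and 55.6 CPM in CAF-1 OFF libraries and 32.0 and 23.7 CPM in HOXA9 OFF libraries. The groups other than the control did not overlap with uninduced cells, and the log2 fold change in HOXA9 OFF was -1.76 ± 0.15 (edgeR FDR 6.1e-05). Dut, which breaks down dUTP, went from 330 and 296 CPM to 118 and 84.9 CPM (log2 fold change -1.62), and Tyms, which makes thymidylate, from 208 and 189 CPM to 89.2 and 66.6 CPM (-1.35). The ribonucleotide reductase subunits Rrm1 and Rrm2 fell less, with -0.77 and -0.74, and the Rrm2 call was lost without HOXA9 OFF replicate 2. Tk1, the S-phase thymidine kinase of the salvage route, was at 95.1 and 77.7 CPM and then at 75.2 and 48.0 CPM (-0.49 ± 0.21, edgeR FDR 0.084). Chek1, the kinase that answers stalled forks, went from 64.3 and 64.8 CPM to 25.7 and 18.8 CPM (-1.54 ± 0.19, edgeR FDR 0.00034).

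Genes with and without E2F letters were then set side by side, as a description with no test. The median log2 fold change in HOXA9 OFF cells was -0.88 for the 14 genes with the letters, of which 11 fell, and -0.87 for the 25 genes without them, of which 20 fell. These counts were 8 and 17 without HOXA9 OFF replicate 2, and 14 and 23 without replicate 1. The lowest gene with the letters was Orc1 at -1.54, while Pold2, Ung, Orc2, Dut and Chek1, with none of them in their windows, ranged from -2.14 to -1.54.

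Whether loss of CAF-1 lowers replication genes was asked by comparing CAF-1 OFF with uninduced cells. Only Dbf4 and Ung fell, 0 genes rose, and 45 of 47 were not called, while 3.5% of all tested genes were called lower and 10.5% called higher. The median log2 fold change of the 47 genes was -0.21 against 0.01 over all genes, 40 of the 47 had a value below 0, and 32 had both CAF-1 OFF libraries below both uninduced libraries. The share of all tested genes whose libraries lay apart in this way was not counted, so the 32 cannot be set against it. Dbf4 was at 201 and 215 CPM in uninduced libraries, 198 and 204 CPM in IPTG-treated control libraries, 140 and 132 CPM in CAF-1 OFF libraries and 137 and 128 CPM in HOXA9 OFF libraries. Both treatments thus stood at a like level, and Dbf4 changed by -0.61 ± 0.09 on the log2 scale in CAF-1 OFF (edgeR FDR 0.0074). Ung, at 58.5 and 55.6 CPM in CAF-1 OFF libraries, had a log2 fold change of -0.72 ± 0.15 (edgeR FDR 0.017). Both calls were lost without uninduced replicate 1, without uninduced replicate 2 (where Pold2 was called instead) and without CAF-1 OFF replicate 2, and Ung alone was lost without CAF-1 OFF replicate 1. Each of these fits left 1 library in a group, and fewer of all tested genes were called lower in them as well. The call of Dbf4 was also lost with library size alone in place of TMM.

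A further 3 genes passed the FDR threshold in CAF-1 OFF cells with less than 1.5-fold: Pold2 (log2 fold change -0.52, edgeR FDR 0.016), Tyms (-0.51, FDR 0.044) and Orc2 (-0.30, FDR 0.046). In the other direction, Rrm2, the S-phase subunit of ribonucleotide reductase, had the highest value. It was at 375 and 374 CPM in uninduced libraries, 381 and 347 CPM in IPTG-treated control libraries and 496 and 535 CPM in CAF-1 OFF libraries, so both CAF-1 OFF libraries were above the other 4 (log2 fold change 0.46 ± 0.18, edgeR FDR 0.11, not called). Cdc6, Prim1 and Rfc1 also had both CAF-1 OFF libraries above both uninduced ones, with log2 fold changes of 0.15, 0.12 and 0.15 and FDR values from 0.53 to 0.66. By role, the remaining lowest and highest values were -0.84 (Mcm6) and 0.15 (Cdc6) in licensing, 0.05 (Gins3) at the top of the fork helicase, 0.12 (Prim1) at the top of the polymerases, -0.37 (Rpa3) and 0.15 (Rfc1) in clamp loading, and -0.50 for Chek1.

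IPTG-treated control cells gave no call against uninduced cells among the 47 genes by edgeR. Besides IPTG and 48 h of culture, these groups may differ in vector or clone, which the labels do not state. Between IPTG-treated control and uninduced cells, 0 of the 47 genes and 0% of all tested genes were called lower and 0% higher by edgeR, with log2 fold changes of the 47 from -0.19 to 0.06 and a median of -0.04. At an unadjusted p under 0.05 there were 0 of the 47 and 100 of all 13080 genes (0.765%), and DESeq2 called 0 of the 47 but 5 of all genes tested, each higher. Against these control cells, the fall of Ung in CAF-1 OFF cells was -0.67 ± 0.15 (edgeR FDR 0.023), the single call among the 47 where 3.2% of all genes were called lower and 9.56% higher. Dbf4 was at -0.56 ± 0.09 there (edgeR FDR 0.011), under 1.5-fold, and the call of Ung was lost without any 1 of the 4 libraries compared. Fewer of all tested genes were called lower in those fits as well.

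Both treatments were compared directly, since a call in one and not in the other does not test their difference. In CAF-1 OFF against HOXA9 OFF cells, 27 of the 47 genes were higher in CAF-1 OFF and 0 lower, where 22.2% of all tested genes were called higher and 21.4% lower. The median log2 difference was 0.69 over the 47 genes and 0.04 over all genes, and in 41 of the 47 both CAF-1 OFF libraries were above both HOXA9 OFF libraries, with no such number taken over all genes. The count was 19 without HOXA9 OFF replicate 2 and 35 without replicate 1. With library size alone the median of all genes was 0.27 and that of the 47 genes 0.93. In that setting 38 of the 47 and 3949 of all 13080 genes were called higher. Higher levels in CAF-1 OFF were called for 7 of 12 licensing genes, 4 of 8 fork helicase genes, 6 of 9 polymerase genes, 5 of 11 clamp genes, 4 of 6 nucleotide genes and Chek1. Without HOXA9 OFF replicate 2 these were 6, 2, 3, 3 and 4 genes and Chek1, with Mcm7, Mcm10, Gins3, Pola2, Prim1, Pold1, Rfc3 and Rpa3 lost. Without replicate 1 they were 10, 6, 7, 5 and 6 genes and Chek1. Gins3 and Fen1 were lost without either CAF-1 OFF replicate, and Fen1 also without HOXA9 OFF replicate 1.

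The largest differences between both treatments were those of Pold2 (log2 difference 1.62 ± 0.11, edgeR FDR 4e-05) and Orc2 (1.38 ± 0.09, FDR 3.8e-05), followed by Gins2 and Pole at 1.22. Rrm2, at 496 and 535 CPM in CAF-1 OFF libraries and 270 and 179 CPM in HOXA9 OFF libraries, differed by 1.20 ± 0.18 (edgeR FDR 0.0011), and Cdc6 by 1.18. Rpa2 was at the top of the clamp genes with 1.05. At the other end of each role, differences near 0 were found for Dbf4 (0.04 ± 0.09, edgeR FDR 0.75), Mcm6 (-0.05 ± 0.39, FDR 0.92) and Rfc2 (0.02 ± 0.14, FDR 0.90), while Pold3 and Rrm1 were at 0.27 and 0.53. The standard error of Dbf4 was narrow and that of Mcm6 wide, so the data bound the former difference more closely.

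Markers of cycling and of maturing cells moved with these groups. The 6 proliferation markers summed to 1157 and 1162 CPM in uninduced libraries, 1322 and 1360 CPM in CAF-1 OFF libraries and 1089 and 828 CPM in HOXA9 OFF libraries. In HOXA9 OFF cells Ccnb1, Cdk1, Ccna2 and Aurka, which drive the cycle through S phase and mitosis, fell with log2 fold changes from -0.81 to -0.60. Mki67 was at 0.48 and Plk1 at -0.29, neither of them called. In CAF-1 OFF libraries Mki67, a marker of cycling cells, was called higher (0.65 ± 0.18, edgeR FDR 0.037), and the other 5 were not called, with values from -0.08 for Ccnb1 to 0.26 for Plk1. The 6 granulocyte markers summed to 36.3 and 50.4 CPM in uninduced libraries, 176 and 260 CPM in CAF-1 OFF libraries and 8414 and 5734 CPM in HOXA9 OFF libraries, and all 6 were called higher in HOXA9 OFF. Erythroid and megakaryocyte markers summed to 23.8 CPM in each uninduced library, 176 and 211 CPM in CAF-1 OFF libraries and 136 and 125 CPM in HOXA9 OFF libraries. Their part in the levels of the replication genes was not tested.

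A list of 48 other replication factors gave a wider range. In HOXA9 OFF cells 23 of them fell and 4 rose (median log2 fold change -0.53), where 22.1% of all tested genes were called lower and 25.2% higher. Those numbers were 20 and 5 without HOXA9 OFF replicate 2, and 27 and 5 without replicate 1. The lowest were Dctd, which makes dUMP for thymidylate synthesis, at -3.33 ± 0.21, then Shmt2 (-2.34) and Shmt1 (-2.13), which feed one-carbon units into that route, with Mthfd1 and the helicase gene Recql4 both at -1.84. Those that rose were Samhd1 (3.10 ± 0.11, edgeR FDR 8.5e-06), which breaks down dNTPs, the mitochondrial nucleotide kinases Cmpk2 (2.66) and Tk2 (1.11), and Pold4 (1.20), the smallest polymerase delta subunit. Samhd1 was at 46.0 and 41.7 CPM in uninduced libraries, 71.0 and 77.8 CPM in CAF-1 OFF libraries and 382 and 368 CPM in HOXA9 OFF libraries, so each group stood above the one before without overlap. Polymerase delta thus had Pold1 and Pold2 called lower and Pold4 called higher in the same libraries.

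Of these 48 factors, 6 fell and 1 rose in CAF-1 OFF cells (median -0.19), where 3.5% of all tested genes were called lower and 10.5% higher. These calls were lost without CAF-1 OFF replicate 2 or without uninduced replicate 1, and fewer of the 48 were called without uninduced replicate 2. Such fits leave 1 library in a group, and fewer of all tested genes were called in them as well. Those that fell included Shmt2 (-0.80 ± 0.17, edgeR FDR 0.018), Dctd (-0.76), Mcm9 (-0.72), Pole4 (-0.71) and Recql4 (-0.66), and the gene that rose was Samhd1 (0.76 ± 0.11, edgeR FDR 0.0061). Directly compared, 21 of the 48 were higher in CAF-1 OFF than in HOXA9 OFF cells and 4 lower (Samhd1, Cmpk2, Tk2 and Pold4), where 22.2% of all tested genes were called higher and 21.4% lower. The numbers were 14 and 6 without HOXA9 OFF replicate 2, and 27 and 7 without replicate 1.

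Regulators of the replication genes were described from a list of 18 E2F factors, partners and pocket proteins. E2f2, an activating E2F, rose in both treatments, from 26.7 and 29.1 CPM in uninduced libraries to 64.4 and 93.5 CPM in CAF-1 OFF libraries (log2 fold change 1.5 ± 0.18, edgeR FDR 0.0043) and 122 and 109 CPM in HOXA9 OFF libraries (2.05 ± 0.18, FDR 6.9e-05). Rb1, the retinoblastoma gene, also rose in both, from 44.3 and 48.3 CPM to 67.2 and 79.9 CPM (0.67) and 121 and 117 CPM (1.36), and its level was lower in CAF-1 OFF than in HOXA9 OFF cells (-0.69 ± 0.14, edgeR FDR 0.0045). The related Rbl2 was called higher in HOXA9 OFF cells (0.74). The repressors E2f7 (1.03) and E2f8 (0.79) were called higher in CAF-1 OFF cells, at 25.6 and 34.8 CPM and at 128 and 138 CPM. In all, 4 of the 18 were called higher in CAF-1 OFF, where 10.5% of all tested genes were. Fewer of the 18 were called higher without CAF-1 OFF replicate 2 or without either uninduced replicate. Those fits leave 1 library in a group, and fewer of all tested genes were called higher in them as well.

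In HOXA9 OFF cells 5 of the 18 fell, namely E2f5 (-1.53), Mybl2 (-1.51), E2f4 (-0.92), E2f6 (-0.82) and the E2F partner Tfdp2 (-0.71), and 3 rose, while 22.1% of all tested genes were called lower and 25.2% higher. Without HOXA9 OFF replicate 2 there were 4 lower and 5 higher, and without replicate 1 there were 7 and 3. In CAF-1 OFF cells 0 of the 18 fell, where 3.5% of all tested genes were called lower. Mybl2, a factor for genes of late S phase and mitosis, was at 95.4 and 92.4 CPM in uninduced libraries, 103 and 98.5 CPM in CAF-1 OFF libraries and 37.6 and 28.4 CPM in HOXA9 OFF libraries, a difference between treatments of 1.61 ± 0.14 (edgeR FDR 0.00011). E2f1, at 63.2 and 57.4 CPM in uninduced libraries, had log2 fold changes of 0.28 in CAF-1 OFF and 0.16 in HOXA9 OFF cells, neither called.

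**Figure D5:**
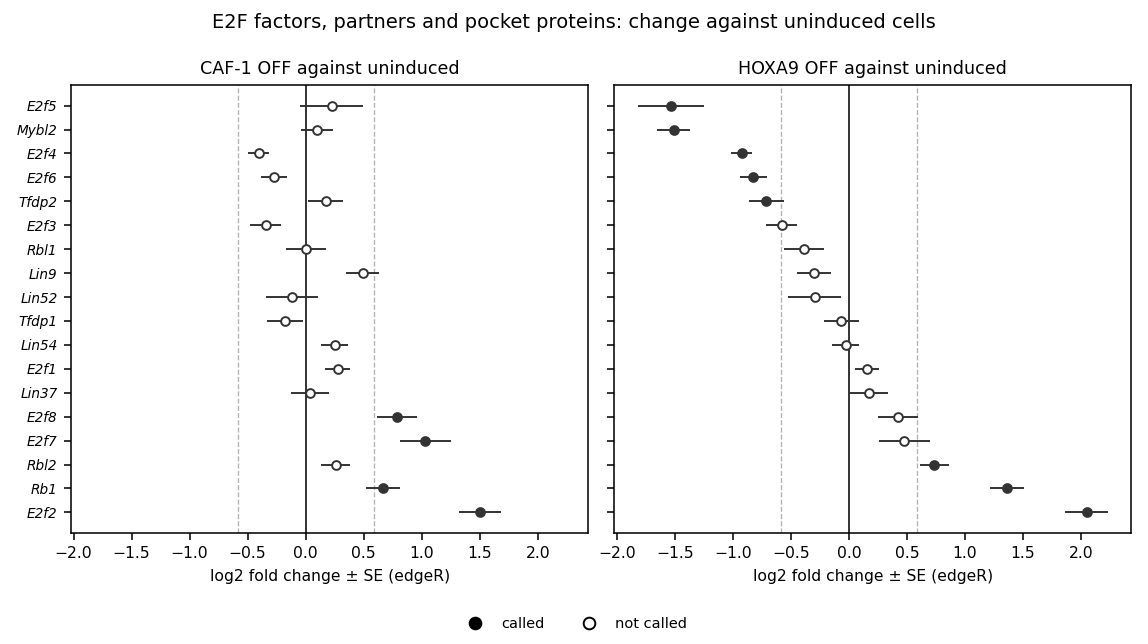
Log2 fold change with its standard error (edgeR) of 18 E2F factors, partners and pocket proteins against uninduced cells, in CAF-1 OFF cells on the left and HOXA9 OFF cells on the right. Filled points were called and dashed lines mark 1.5-fold, with 4 higher and 0 lower on the left and 3 higher and 5 lower on the right.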

How the data were processed

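RNA sequencing was measured in 8 libraries. According to the study's methods and the submitters' processing notes, the authors aligned reads to mm9 with STAR and counted them per gene with HTSeq. The deposited values are raw counts per gene symbol. The strand setting and annotation version are not given in the sources used here. HTSeq summary lines were kept out of library sizes and tests.

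Counts were filtered (filterByExpr), scaled (TMM) and fitted with edgeR 4.0.16 in R 4.3.3, with 1 mean per group over all 8 libraries, and tested by quasi-likelihood with Benjamini-Hochberg adjustment. The standard error was derived from the F statistic, and the biological coefficient of variation was 18.9%. DESeq2 1.42.0 and other scalings, filters, thresholds and left-out libraries were alternatives. The code was tested on simulated data. Exon lengths and overlaps came from GENCODE vM1 in the same build, and figures from matplotlib 3.10.9. Per comparison and role, the lowest and highest changes were named with full statistics, and up to 5 called genes at each end of the other lists. Members and lists were chosen with earlier results of these data known. Fen1, Gins2, Pcna and Rpa3 share sequence or overlap other genes.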

Additional observations from a re-analysis of the deposited data

How the results depend on the processing

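Precision is limited by 2 libraries per group. Of 65 single-gene calls among the 47 genes, 0 changed direction under any alternative, and 63 kept their call under each other scaling, filter, test, fit of only the compared groups and the replicate block. With library size only, the number called lower in CAF-1 OFF against uninduced cells was 1 (Dbf4 lost), where 341 of all 13080 genes were. At FDR 0.01 and 2-fold, the numbers were 0 in that comparison (22 of all 13080 genes), 18 called lower in HOXA9 OFF (1506 of all), 0 in CAF-1 OFF against control cells (17 of all) and 12 higher in CAF-1 OFF than in HOXA9 OFF (1467 of all). With no fold threshold, where 1133, 3659, 987 and 3646 of all genes were called, the numbers for the 47 were 5, 40, 3 and 35. Leaving out 1 library gave 0 to 2, 28 to 43, 0 to 1 and 19 to 35 in the same order, and a group left with 1 library was assumed to vary like the others. With only the compared libraries, 3 genes were called lower in CAF-1 OFF against uninduced cells and 2 against control cells, the gene gained in both being Mcm6, and Gins3 was lost in HOXA9 OFF against uninduced cells. With control cells as the reference, 33 genes were called lower in HOXA9 OFF. The causes were not tested.

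The labels give replicate numbers but not what they mark, and deviations of same-numbered libraries correlated across genes at 0.48 between uninduced and control, 0.32 between control and HOXA9 OFF, 0.30 between uninduced and HOXA9 OFF, 0.08 between both treatments, -0.02 between control and CAF-1 OFF and -0.04 between uninduced and CAF-1 OFF. Since not every pair was above 0.1, the numbers were not taken to pair the samples. With the replicate block, 2 genes were called lower in CAF-1 OFF against control cells, 3 in CAF-1 OFF and 36 in HOXA9 OFF against uninduced cells, and the gene gained in each was again Mcm6, with log2 fold changes of -0.75, -0.79 and -0.84 (edgeR FDR 0.041, 0.032 and 0.0096).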
